A study of Mus musculus with 16 samples.

Results

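The genes described here encode the machinery that moves newly made proteins into the endoplasmic reticulum (ER), removes their signal peptides and attaches the first sugars to them. They were chosen by gene symbol from a fixed list of 34 genes, and all 34 were among the 25105 genes of the expression table. The list holds 6 genes of the signal recognition particle (SRP), the SRP receptor gene Srprb, 4 genes of the Sec61 channel, Sec62 and Sec63, the translocating chain-associated genes Tram1 and Tram2, 4 genes of the translocon-associated protein (TRAP) complex, 5 genes of signal peptidase and 10 genes of the oligosaccharyltransferase (OST). RNA was sequenced from dispersed islet cells of Grp78 flox/flox mice in 4 preparations, F1, M1, M2 and F2. Cells of each preparation received adenovirus carrying LacZ (Ad-LacZ) or Cre recombinase (Ad-Cre), each with the vehicle DMSO or with the pan-JNK inhibitor JNK-IN-8, for 72 hours in 15 mM glucose. With 1 library per treatment and preparation this gave 4 groups of 4 libraries, named here by the virus and, where it was given, the JNK inhibitor. All groups carried the floxed Grp78 alleles, and the mice were adult. The cells were not sorted by type. Each label carries a pair of animal numbers per preparation, whereas the study counts 4 mice, and the preparations were treated as the replicates.

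As background, SRP binds the signal peptide of a growing chain on the ribosome and is received at the ER by its receptor. The chain then passes through the Sec61 channel, with TRAP and TRAM beside it and Sec62 and Sec63 serving chains that SRP serves poorly. Signal peptidase cuts off the signal peptide, and OST moves a preassembled sugar tree from a lipid carrier to asparagines of the chain. Beta cells send proinsulin into the ER, and GRP78, the ER chaperone encoded by the targeted gene Hspa5, works on the lumenal side of the channel.

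The expression values were reads per kilobase and per mega (M) of mapped reads (RPKM), and whole-read steps among low values put the depth at 7.7 to 25.5 M reads per library. This depth was inferred, and its low end is below the range of raw counts per sample that the study states. The library Ad-Cre + JNK inhibitor F2 had the lowest depth, and its label carries another prefix and another lane number than those of the other 15. Hspa5 itself was 438 ± 49.0 RPKM (SD, n = 4) in Ad-LacZ and 1264 ± 231 RPKM (SD, n = 4) in the libraries labelled Ad-Cre, a log2 fold change of 1.52 (SE 0.18, limma's adjusted p = 0.00212). A rise of the whole gene goes against a knockdown label, but a value per gene mixes floxed and other exons and so cannot check the label. The study checked the knockdown by qPCR on parallel aliquots, which is not analysed here, and every direction below is that of the libraries as labelled. All 10 beta cell markers were above 1 RPKM in the median of each group, whereas 11 to 12 of 13 acinar markers were below 1 RPKM in each group.

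Promoter sequences were taken from RefSeq (GRCm38.p6, 250 bases before to 50 bases after each start), because members that move together may share letters there. They are shown for Srprb, Sec11a, Stt3b and Magt1, which rose with Ad-Cre, for Krtcap2 and for Hspa5. An entry was found for 25 of the 34 members, and those without one were Srp19, Srp68, Sec61a1, Tram1, Ssr2, Spcs3, Sec11c, Ostc and Tusc3. Each sequence runs 5′ to 3′ along its gene, and capitals mark CCAAT and CCACG on either strand, or the whole of an ERSE-II where there is one:
Hspa5, chr2:34771840-34772139, plus strand: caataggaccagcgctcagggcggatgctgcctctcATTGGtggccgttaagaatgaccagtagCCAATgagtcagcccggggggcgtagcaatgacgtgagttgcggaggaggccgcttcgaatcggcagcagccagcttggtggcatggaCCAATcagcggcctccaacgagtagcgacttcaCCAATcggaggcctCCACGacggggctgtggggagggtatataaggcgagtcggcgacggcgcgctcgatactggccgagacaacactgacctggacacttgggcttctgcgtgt
Krtcap2, chr3:89246223-89246522, plus strand: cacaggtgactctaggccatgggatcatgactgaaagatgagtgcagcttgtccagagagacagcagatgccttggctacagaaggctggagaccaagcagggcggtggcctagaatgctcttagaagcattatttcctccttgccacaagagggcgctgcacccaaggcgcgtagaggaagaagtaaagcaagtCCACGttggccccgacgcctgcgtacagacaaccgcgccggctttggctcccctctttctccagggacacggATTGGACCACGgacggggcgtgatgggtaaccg
Srprb, chr9:103202016-103202315, minus strand: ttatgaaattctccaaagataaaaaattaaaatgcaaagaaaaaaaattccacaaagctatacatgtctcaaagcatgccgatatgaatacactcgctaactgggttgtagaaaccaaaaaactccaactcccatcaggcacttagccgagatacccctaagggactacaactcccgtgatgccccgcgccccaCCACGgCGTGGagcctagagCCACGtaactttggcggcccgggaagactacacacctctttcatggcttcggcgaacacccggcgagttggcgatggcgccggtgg
Sec11a, chr7:80947501-80947800, minus strand: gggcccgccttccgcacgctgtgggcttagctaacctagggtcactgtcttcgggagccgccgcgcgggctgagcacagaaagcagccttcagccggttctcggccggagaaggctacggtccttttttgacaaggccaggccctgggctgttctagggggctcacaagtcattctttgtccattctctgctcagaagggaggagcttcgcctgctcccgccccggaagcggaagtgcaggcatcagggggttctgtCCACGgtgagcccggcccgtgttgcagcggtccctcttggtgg
Stt3b, chr9:115310419-115310718, minus strand: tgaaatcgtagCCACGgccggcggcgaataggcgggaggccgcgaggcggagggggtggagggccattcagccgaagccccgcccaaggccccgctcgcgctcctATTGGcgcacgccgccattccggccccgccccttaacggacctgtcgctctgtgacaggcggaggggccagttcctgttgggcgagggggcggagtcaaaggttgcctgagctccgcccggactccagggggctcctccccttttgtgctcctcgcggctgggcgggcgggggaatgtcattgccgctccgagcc
Magt1, chrX:106011753-106012052, minus strand: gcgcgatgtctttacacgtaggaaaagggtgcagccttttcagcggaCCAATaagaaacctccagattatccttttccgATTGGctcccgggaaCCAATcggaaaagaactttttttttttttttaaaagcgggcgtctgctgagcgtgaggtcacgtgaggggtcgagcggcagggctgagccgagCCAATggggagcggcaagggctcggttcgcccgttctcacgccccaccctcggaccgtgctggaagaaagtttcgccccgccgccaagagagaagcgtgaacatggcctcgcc

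The ER stress response element (ERSE, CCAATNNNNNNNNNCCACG on either strand) was found in 37 of 27025 genes with an entry (0.137%). It was in the Hspa5 promoter and in 0 of the 25 members. The related ERSE-II (ATTGG, any base, then CCACG, and so also a match to both short parts, searched on either strand) was in 12 genes (0.0444%). Among them was Krtcap2, 17 bases after the second of its listed starts. TGACGTGG (an unfolded protein response element, 0.714% of genes), TGACGTCA (a cAMP response element, which shares its first letters, 2.03%) and TGATGCAA (a C/EBP-ATF element, 1.03%) were each in 0 of 25 members. The short parts were common: CCAAT was in 14 of 25 members against 41.1% of all genes, and CCACG in 16 of 25 against 35.5%. Magt1 held CCAAT at 4 places and no CCACG, while Srprb held CCACG at 3 places and no CCAAT. These matches describe letters in a window of 300 bases and are not measured binding sites.

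In the Ad-LacZ libraries the members spanned a wide range of levels per kilobase. Ddost, a scaffold subunit of OST, had the highest level at 317 ± 36.7 RPKM (SD, n = 4), followed by the signal peptidase subunit Spcs1 at 215 ± 25.4 RPKM. At the low end stood Sec61g at 5.11 ± 0.845 RPKM, Sec61a2 at 2.29 ± 0.522 RPKM and Tram2 at 0.480 ± 0.219 RPKM, the last of which did not pass the filter of more than 1 RPKM in at least 4 libraries and was not tested. The channel alpha subunit was therefore mostly Sec61a1 (67.7 ± 6.42 RPKM) rather than its paralog Sec61a2, and TRAM was mostly Tram1 (126 ± 5.11 RPKM). By the inferred depth, 19 to 223 reads per library lay behind the values of Tram2, 92 to 374 behind Sec61a2 and at least 137 behind each of the other 32 members. The deposited RPKM were inferred to divide by the union of all exons of a gene, which is long for some members. With the length of the principal transcript instead, the Ad-LacZ mean of Sec11c moved from 45.9 to 364 RPKM, that of Ssr4 from 94.1 to 381 and that of Spcs1 from 215 to 473, above Ddost. The order of levels between members thus depends on the gene model. Values of Srp54a, which has the near-identical copies Srp54b and Srp54c, and of Spcs2, which has a pseudogene copy expressed at 24.2 ± 2.19 RPKM, are uncertain because reads can be split between copies.

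The first comparison asked how these genes differed between cells that received Cre and cells that received LacZ. Of the 33 members tested, 6 were higher in Ad-Cre at an adjusted p under 0.05 (18.2%), against 7.14% of the 11590 genes tested, and 0 were lower, against 9.4% of genes. The 6 were Srprb, Sec61a1, Ssr3, Sec11a, Stt3b and Magt1, so that the SRP receptor, the channel, TRAP, signal peptidase and OST each had at least 1. The median log2 fold change of the members was 0.29, beside -0.004 over all genes, and 25 members lay above 0 and 8 below. Within preparations, 21 members (63.6%) were higher in Ad-Cre in all 4, against 24.4% of genes, and the 4 preparations had member medians of 0.43 (F1), 0.26 (M1), 0.22 (M2) and 0.30 (F2). With the preparation as a block, 15 members were higher (45.5%), against 15.8% of genes, and 2 were lower, against 18.1% of genes. Because the RNA is from mixed islet cells, fewer cells of a type and less RNA per cell cannot be told apart. Without preparation F2, 0 members were called and 105 of 11459 genes were higher, and without M1 there were 2 members and 227 of 11850 genes. Quantile normalization lowered the member median to 0.15 and left 23 above 0.

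**Figure D1:**
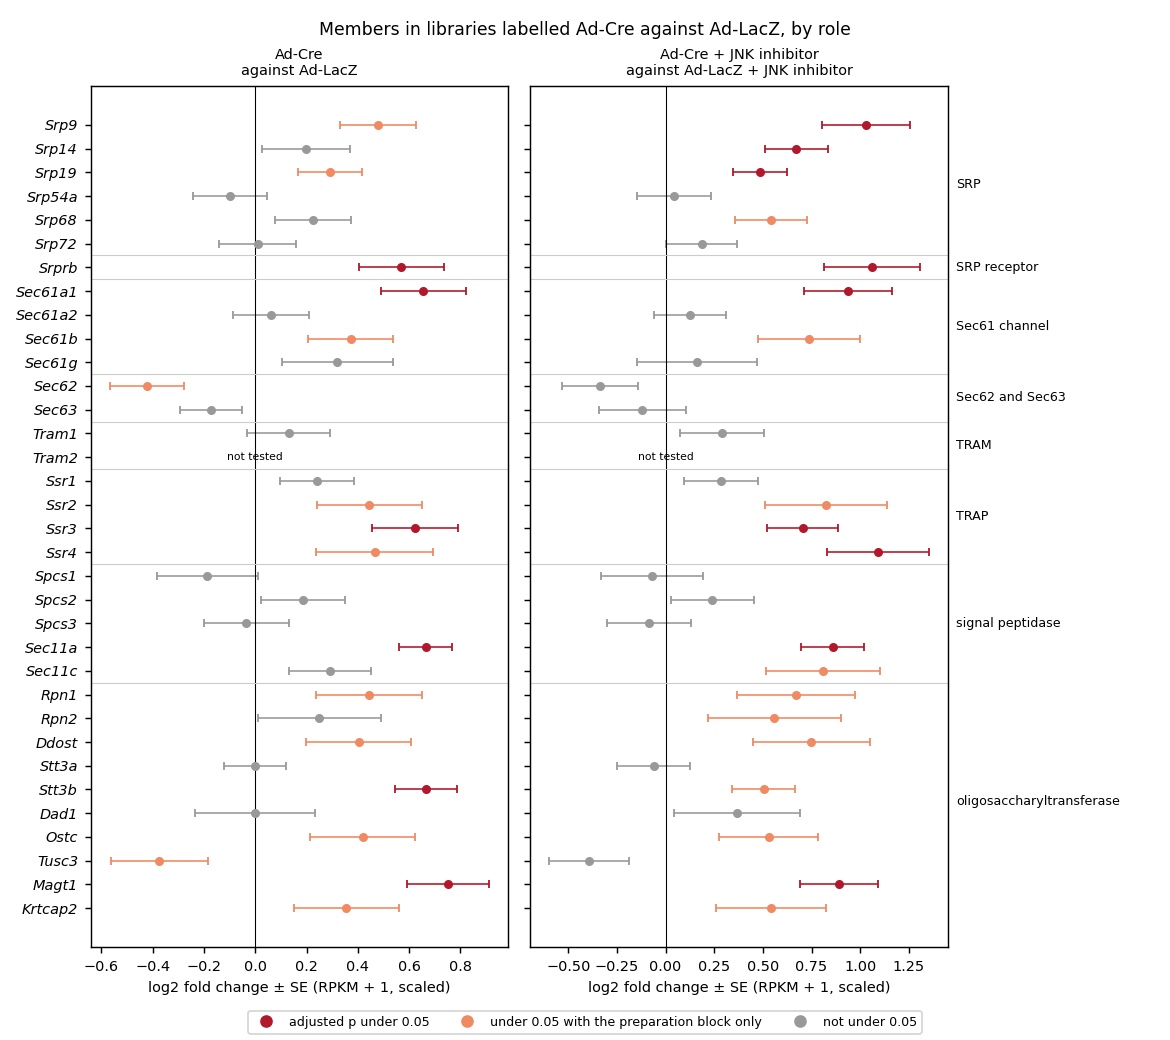
Log2 fold change with its SE for each member for Cre against LacZ virus, with vehicle on the left and with the JNK inhibitor on the right, n = 4 libraries per group, on the scaled log2(RPKM + 1) scale. Dark red points passed an adjusted p of 0.05, orange points passed it with the preparation as a block only, and grey points passed neither. Most points lie to the right of 0. Sec62, Sec63, Spcs1, Spcs3, Stt3a and Tusc3 lie to the left in both panels, Stt3a only barely in the left one.

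None of the SRP genes passed without the block. In Ad-LacZ, Srp9, which with Srp14 forms the part of SRP that slows translation, was at 21.9, 20.6, 19.0 and 21.9 RPKM in F1, M1, M2 and F2, the order kept below. In Ad-Cre it was at 31.8, 29.2, 26.0 and 31.0 RPKM. The RPKM of the groups did not overlap, whereas the scaled values that were tested did, and the log2 fold change was 0.48 (SE 0.15, limma's adjusted p = 0.0582, 0.00681 with the preparation as a block). Srp19, which assembles the particle, was at 0.29 (SE 0.13, limma's adjusted p = 0.144, falling to 0.0491 with preparations blocked). The other 4, Srp14, Srp54a, Srp68 and Srp72, were between -0.10 and 0.23 and passed in neither fit. Thus 0 of 6 SRP genes rose (7.14% of all genes), or 2 of 6 with the block (15.8%).

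The receptor subunit Srprb, a membrane GTPase that anchors the SRP receptor, was at 29.2, 28.9, 24.7 and 22.2 RPKM in Ad-LacZ. The Ad-Cre libraries had 43.2, 37.7, 36.0 and 40.1 RPKM. The groups did not overlap, and Srprb rose by a log2 fold change of 0.57 (SE 0.16, limma's adjusted p = 0.0458, 0.00487 with the preparation as a block). Its adjusted p was above 0.05 when any 1 preparation was left out.

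In the Sec61 channel, the pore-forming subunit Sec61a1 (chr6:88503579-88518905 in GRCm38) was at 72.8, 72.7, 65.7 and 59.5 RPKM in Ad-LacZ and at 116, 106, 94.4 and 112 RPKM in Ad-Cre. Its groups did not overlap and every preparation moved the same way, with a log2 fold change of 0.66 (SE 0.17, limma's adjusted p = 0.0292, 0.00377 with the preparation as a block). Sec61b, a small tail-anchored subunit, was at 0.37 (SE 0.17, limma's adjusted p = 0.155, 0.0342 with the preparation as a block). The third subunit, Sec61g, was at 0.32 (SE 0.22, limma's adjusted p = 0.341), and the paralog Sec61a2 at 0.06 (SE 0.15, limma's adjusted p = 0.796). The call of Sec61a1 was lost without F1, without F2 or without M1. Of the 4 channel genes 1 rose (7.14% of all genes), or 2 with the block (15.8%).

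Sec62 and Sec63, which help the channel open for SRP-independent chains and recruit GRP78 to it, both lay below 0. Sec62 was at 60.8, 65.1, 54.9 and 66.5 RPKM in Ad-LacZ and at 41.5, 50.03, 43.7 and 48.1 RPKM in Ad-Cre. All 4 preparations were lower, and the RPKM did not overlap between the groups, whereas the scaled values that were tested did. The log2 fold change was -0.42 (SE 0.14, limma's adjusted p = 0.0754, 0.0125 with the preparation as a block), so that Sec62 fell in the blocked fit but not without the block. Its adjusted p also passed under quantile normalization, at 0.0125 and with RPKM as deposited, at 0.0199. Sec63 was lower in all 4 preparations as well, by log2 differences of -0.26, -0.07, -0.06 and -0.29, and passed in neither fit (limma's adjusted p = 0.353, 0.184 with the block). Tram1, which sits beside the channel, was at 0.13 (SE 0.16, limma's adjusted p = 0.611) and was higher in 2 preparations and lower in 2.

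All 4 TRAP genes were higher in all 4 preparations, against 24.4% of all genes. TRAP binds the channel and aids the entry of chains whose signal peptides gate it weakly. Ssr3, its gamma subunit, was at 129, 131, 131 and 129 RPKM in Ad-LacZ, where its SD was the smallest of the members relative to the mean. In Ad-Cre it was at 133, 195, 237 and 265 RPKM. The Ad-Cre libraries spread from a value just above Ad-LacZ in F1 to the highest in F2, and the log2 difference was 0.12 in F1 against 0.60, 0.81 and 0.95 in M1, M2 and F2. Ssr3 rose by 0.62 (SE 0.17, limma's adjusted p = 0.0365, 0.0154 with the preparation as a block), and under quantile normalization, at 0.37, its adjusted p was 0.215. Ssr2 and Ssr4, the beta and delta subunits, rose only with the block: their log2 fold changes were 0.45 (SE 0.20, limma's adjusted p = 0.163, 0.0258 with the preparation as a block) and 0.47 (SE 0.23, limma's adjusted p = 0.19, 0.0246 with the preparation as a block). Ssr1, the alpha subunit, was at 0.24 and passed in neither fit, with a blocked adjusted p of 0.0715. Of the 4 TRAP genes 1 rose (7.14% of all genes), or 3 with the block (15.8%).

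Of the 5 signal peptidase genes 1 rose, without and with the block (7.14% and 15.8% of all genes). Sec11a, a catalytic subunit, was at 18.1, 17.6, 18.3 and 18.8 RPKM in Ad-LacZ and at 26.3, 26.1, 30.6 and 35.8 RPKM in Ad-Cre. The highest Ad-LacZ library was well below the lowest Ad-Cre library, and Sec11a rose by 0.66 (SE 0.10, limma's adjusted p = 0.00579), the smallest p among the members. Its adjusted p stayed under 0.05 in 12 of 13 settings, the exception being the fit without F2 (0.0557). Sec11c, the alternative catalytic subunit, was at 46.6, 46.4, 40.3 and 50.4 RPKM in Ad-LacZ and 61.2, 49.4, 51.0 and 64.9 RPKM in Ad-Cre, and it passed in neither fit at 0.29 (SE 0.16, limma's adjusted p = 0.243, 0.0546 with the preparation as a block). The accessory subunits Spcs1, Spcs2 and Spcs3 were at -0.19, 0.19 and -0.04 and passed in neither fit. Spcs1 was lower in all 4 preparations, and quantile normalization put it at -0.49 (limma's adjusted p = 0.021).

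OST exists in forms with either of the catalytic subunits STT3A, which works at the channel as chains enter, and STT3B, which can also act later. Stt3a was at 50.6, 54.0, 47.0 and 47.9 RPKM in Ad-LacZ and 41.1, 50.5, 53.6 and 55.3 RPKM in Ad-Cre, a log2 fold change within 0.01 of 0 (SE 0.12, limma's adjusted p = 0.996). Stt3b was at 26.3, 26.9, 27.6 and 20.2 RPKM in Ad-LacZ and 35.5, 38.3, 46.0 and 42.3 RPKM in Ad-Cre. Its groups did not overlap, and it rose by 0.67 (SE 0.12, limma's adjusted p = 0.00997, 0.00378 with the preparation as a block). Magt1, an oxidoreductase subunit of the STT3B form, was at 46.7, 43.1, 39.0 and 36.1 RPKM in Ad-LacZ and 61.0, 78.4, 64.5 and 77.2 RPKM in Ad-Cre. Magt1 had the largest log2 fold change of the 33 members tested at 0.75 (SE 0.16, limma's adjusted p = 0.0168, 0.00309 with the preparation as a block). The call was lost without F2 or without M1. Its paralog Tusc3 was at 40.0, 37.1, 35.8 and 25.0 RPKM in Ad-LacZ and 27.6, 28.3, 24.0 and 24.4 RPKM in Ad-Cre. Tusc3 was lower in all 4 preparations, the groups overlapped through the Ad-LacZ library F2, and it fell only with the block, at -0.37 (SE 0.19, limma's adjusted p = 0.203, 0.0296 with the preparation as a block).

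Of the other OST subunits, Rpn1, Ddost, Ostc and Krtcap2, of which the first 2 are core scaffold subunits and the last 2 belong to the STT3A form, were each higher in all 4 preparations. Their log2 fold changes were 0.44, 0.40, 0.42 and 0.36, with adjusted p from limma of 0.172, 0.208, 0.192 and 0.26, and 0.0179, 0.0318, 0.0184 and 0.0487 with the block. Rpn2 was at 0.25 and Dad1 within 0.01 of 0, and neither passed in either fit. In all, 2 of 10 OST genes rose (7.14% of all genes), or 6 of 10 with the block (15.8%), and 1 of 10 fell with the block (18.1%). Ddost was at 0.40 after the scaling used here but at 0.05 after quantile normalization.

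**Figure D2:**
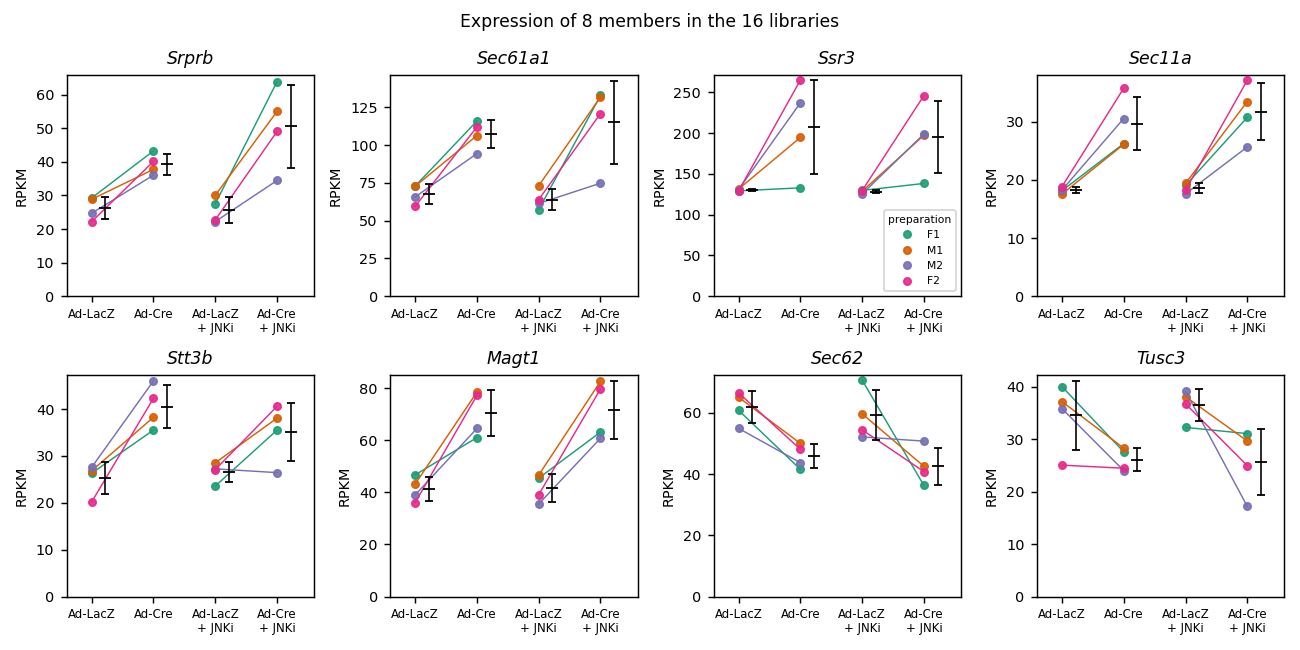
RPKM of the 6 members that rose in Ad-Cre and of Sec62 and Tusc3 in the 16 libraries. Points are libraries coloured by preparation, lines join the libraries of a preparation under the same inhibitor treatment, and black marks give the mean ± SD (n = 4). Srprb, Sec61a1, Ssr3, Sec11a, Stt3b and Magt1 are higher in Ad-Cre than in Ad-LacZ in all 4 preparations, with Ssr3 in F1 moving only from 129 to 133 RPKM.

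Ratios of alternative subunits within a library do not depend on the scaling. The log2 ratio of Stt3a to Stt3b was 0.94, 1.01, 0.77 and 1.25 in Ad-LacZ and 0.21, 0.40, 0.22 and 0.38 in Ad-Cre (difference -0.69, exact two-sided permutation p = 0.0286, 0.0714 after Benjamini-Hochberg adjustment over 5 ratios). The ratio of Tusc3 to Magt1 was -0.22, -0.22, -0.12 and -0.53 in Ad-LacZ and -1.15, -1.47, -1.43 and -1.66 in Ad-Cre (difference -1.15, exact two-sided permutation p = 0.0286, 0.0714 after Benjamini-Hochberg adjustment over 5 ratios). Both ratios were lower in 4 of 4 preparations with no overlap between the groups, but neither held an adjusted p under 0.05, and 0.0286 is the smallest p that 4 libraries against 4 can give. For Sec11c to Sec11a the ratio was 1.36, 1.40, 1.14 and 1.42 in Ad-LacZ and 1.22, 0.92, 0.74 and 0.86 in Ad-Cre (difference -0.40, exact two-sided permutation p = 0.0571, 0.0952 after Benjamini-Hochberg adjustment over 5 ratios), lower in 4 of 4 preparations. The ratios of Sec61a2 to Sec61a1 (exact p = 0.171, lower in 4 of 4) and of Tram2 to Tram1 (exact p = 0.543) rest on few reads of the first gene. With the preparation as a block, the exact sign-flip p was 0.125 for the first 4 ratios, the smallest it can be with 4 preparations, and 0.25 for Tram2 to Tram1. With the inhibitor, the ratio of Tusc3 to Magt1 was -0.50, -0.29, 0.14 and -0.09 in Ad-LacZ and -1.02, -1.48, -1.82 and -1.68 in Ad-Cre, again without overlap. That of Stt3a to Stt3b was 1.23, 0.96, 0.67 and 0.71 and 0.04, 0.27, 0.68 and 0.25, which overlapped through the M2 library of Ad-Cre + JNK inhibitor.

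**Figure D3:**
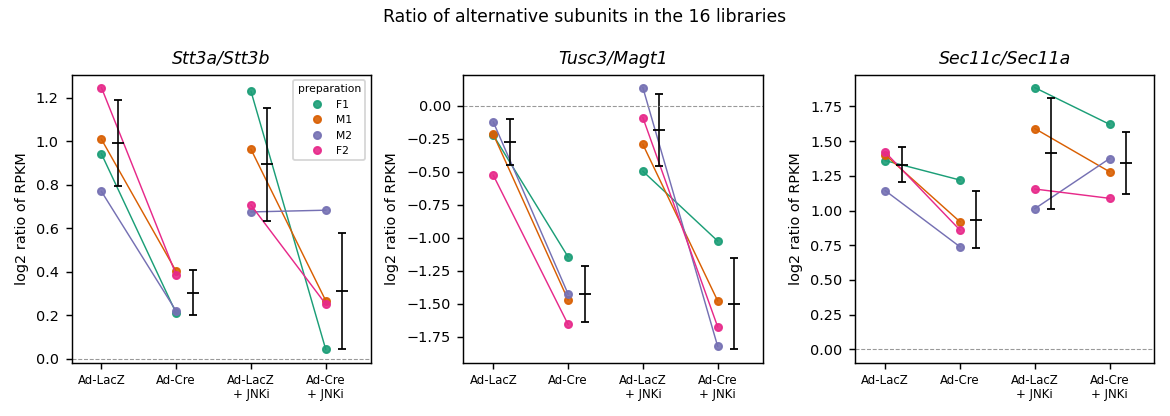
Log2 ratio of RPKM between alternative subunits in the 16 libraries, with points for libraries, lines within a preparation, black marks for the mean ± SD (n = 4) and a dashed line at equal RPKM. The Tusc3 to Magt1 ratio lies between -0.53 and -0.12 in Ad-LacZ and between -1.66 and -1.15 in Ad-Cre.

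Genes that work before and after these steps were counted from 7 related lists in the same fit, in which 7.14% of all genes were higher, or 15.8% with the block. The lumenal Hsp70 system, which pulls chains through the channel and folds them, had 5 of 8 genes higher, the targeted gene Hspa5 among them, and a median of 1.04. Hyou1, the ER Hsp70-like nucleotide exchange factor, rose by 1.79 (SE 0.21, limma's adjusted p = 0.00201), with group means going from 141 ± 28.2 to 484 ± 61.6 RPKM (SD, n = 4). The J-domain cochaperones Dnajc3 and Dnajb11 rose by 1.54 (SE 0.16, limma's adjusted p = 0.00134) and 1.33 (SE 0.15, limma's adjusted p = 0.00177). Of the enzymes and lectins that trim and read the new glycan, 4 of 10 rose, led by the lectin chaperone Calr at 1.55 (SE 0.19, limma's adjusted p = 0.00205) and its oxidoreductase partner Pdia3 at 1.12 (SE 0.18, limma's adjusted p = 0.00562), with Prkcsh and Canx at 0.47 and 0.47. With the block these became 6 higher and 1 lower (Uggt2). Of the 29 tested genes that build the lipid-linked sugar tree, 5 rose, 9 with the block, and 1, Alg14, was lower with the block. Among them the mannosyltransferase Alg12 rose by 0.86 (SE 0.10, limma's adjusted p = 0.00201), Gnpnat1 and Uap1 of UDP-GlcNAc synthesis by 0.64 and 0.54, and Dhdds of dolichol synthesis by 0.56.

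In the ER membrane complex 1 of 10 genes rose, or 2 with the block, shares near those over all genes (7.14%, and 15.8% with the block), and the former was Emc3 at 0.42 (SE 0.11, limma's adjusted p = 0.0305). Of 6 genes for tail-anchored proteins 2 rose, Get4 at 0.65 (SE 0.13, limma's adjusted p = 0.0149) and Caml at 0.39 (SE 0.08, limma's adjusted p = 0.0181). Among 6 partners of the multipass translocon and 8 further targeting, translocon and OST genes 0 were called, or 2 and 2 with the block. Apart from Uggt2 and Alg14, 0 genes of the 7 lists were lower in either fit. The ERSE or ERSE-II was found in Alg12 among 25 lipid-linked sugar genes with a promoter entry, and in Canx and Calr among 10 of glycan trimming. In the lumenal Hsp70 list, with 6 entries, it was in Hspa5, Dnajb11 and Dnajc3, and the other lists had none. Pdia3 and Prkcsh, which also rose, held neither element. Krtcap2, the member with an ERSE-II, passed only with the block, and the other genes of the genome with either element were not compared.

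**Figure D4:**
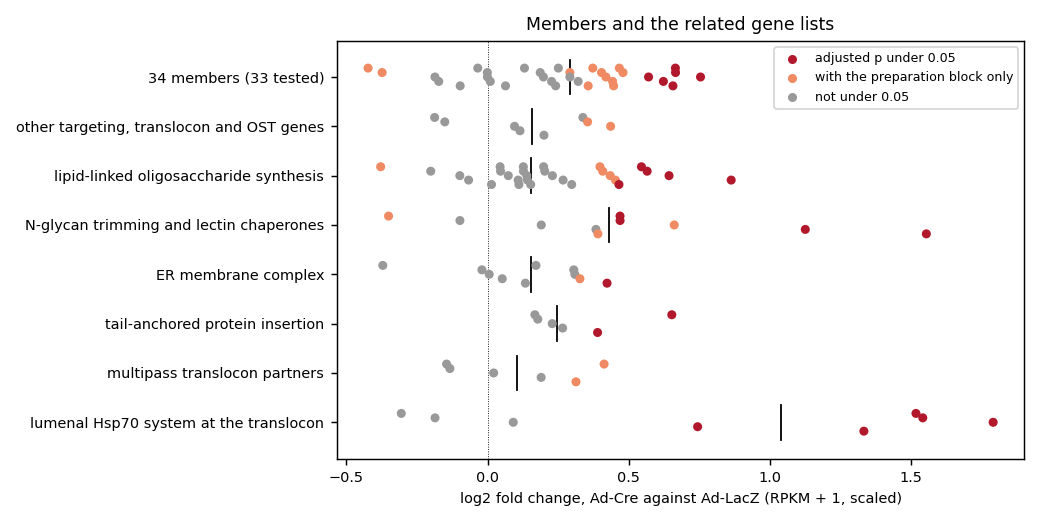
Log2 fold change in Ad-Cre against Ad-LacZ of each tested member and of the genes of the 7 related lists, with points for genes and black lines for list medians. The member median is 0.29, and the lumenal Hsp70 list reaches 1.79 with a median of 1.04.

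The same contrast was made among libraries with the inhibitor. They are other libraries than those above but come from the same 4 preparations, so the contrasts are not independent. Of 33 members tested, 9 were higher in Ad-Cre + JNK inhibitor than in Ad-LacZ + JNK inhibitor (27.3%), against 10.1% of 11598 genes, and 0 were lower, against 10.5% of genes. They were Srp9, Srp14, Srp19, Srprb, Sec61a1, Ssr3, Ssr4, Sec11a and Magt1. With the block 19 members were higher, against 12.7% of genes, and 0 lower, against 12.1%. Those added by the block were Srp68, Sec61b, Ssr2, Sec11c, Rpn1, Rpn2, Ddost, Stt3b, Ostc and Krtcap2. Their blocked adjusted p from limma ran from 0.00928 (Ddost) to 0.0344 (Rpn2). The member median was 0.53, beside -0.03 over all genes, and 21 members were higher in all 4 preparations, against 20.9% of genes. The count rests partly on the shallow library: without Ad-Cre + JNK inhibitor F2 it was 5 members with 768 of 11353 genes higher, and with the block as well it was 2 members, Srprb and Ssr4, with 170 genes higher. Without preparation F2 or M1, 0 members were called, and without M2 there were 10. Quantile normalization lowered the median to 0.26, and RPKM as deposited gave 0.40 where all genes moved to -0.14.

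Here 3 of 6 SRP genes rose (10.1% of all genes). Srp9 was at 29.0, 23.1, 17.5 and 19.3 RPKM in Ad-LacZ + JNK inhibitor and at 45.0, 41.6, 39.5 and 40.7 RPKM in Ad-Cre + JNK inhibitor, without overlap, and rose by 1.03 (SE 0.23, limma's adjusted p = 0.0133). Its partner Srp14 was at 78.0, 73.5, 74.0 and 78.2 RPKM and 127, 107, 103 and 107 RPKM, again without overlap, and rose by 0.67 (SE 0.16, limma's adjusted p = 0.0187). The largest log2 fold change was that of Ssr4, from 110.0, 119, 83.7 and 89.9 RPKM to 252, 198, 136 and 212 RPKM, at 1.09 (SE 0.26, limma's adjusted p = 0.0185). Srprb rose by 1.06 (SE 0.25, limma's adjusted p = 0.0171) and Sec61a1 by 0.94 (SE 0.23, limma's adjusted p = 0.019), although the Ad-Cre + JNK inhibitor library M2 stood nearest to the other group for both. Sec11a and Magt1 rose by 0.86 (SE 0.16, limma's adjusted p = 0.007) and 0.89 (SE 0.20, limma's adjusted p = 0.0141). Stt3b was at 0.50 (SE 0.16, limma's adjusted p = 0.0547, 0.0326 with the preparation as a block), and its M2 library with Cre and inhibitor (26.4 RPKM) lay inside the range of Ad-LacZ + JNK inhibitor. Sec62 was at -0.34 (limma's adjusted p = 0.255) and Tusc3 at -0.39 (limma's adjusted p = 0.203), and neither passed with the block. In the 7 related lists 22 genes were higher and 0 lower (10.1% and 10.5% over all genes). They were 5 of 8 in the lumenal Hsp70 list, 5 of 10 in glycan trimming and 7 of 29 in lipid-linked sugar synthesis. The rest were 3 of 6 for tail-anchored proteins and 2 of 10 in the ER membrane complex, with 0 in the other 2 lists. With the block these 5 lists had 5, 5, 8, 5 and 2 higher (12.7% of all genes). The other targeting genes had 3 and the multipass partners 2.

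The effect of the inhibitor was first read within the Cre libraries, a comparison that shares its libraries with both above. No member passed: 0 of 33 were higher, against 0.00869% of 11503 genes, and 0 lower, against 0.00869% of genes. At an unadjusted p under 0.05 there were 5 members and 924 genes. With the preparation as a block 8 members were higher (24.2%), against 4.66% of genes, and 0 lower, against 2.1%. They were Srp9, Srp14, Srprb, Ssr4, Sec11c, Rpn2, Ddost and Dad1. Without the shallow library the blocked fit called 0 members and 0 of 11202 genes, with 14 members and 2030 genes at an unadjusted p under 0.05. The member median was 0.23, beside -0.01 over all genes, and 19 members were higher in all 4 preparations, against 18.6% of genes. This shift depended on the scaling: 30 members lay above 0 here, 20 with RPKM as deposited, where the median was 0.07 beside -0.14 over all genes, and 18 after quantile normalization, where it was 0.03.

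Among these 8, Srp9 went from 31.8, 29.2, 26.0 and 31.0 RPKM in Ad-Cre to 45.0, 41.6, 39.5 and 40.7 RPKM in Ad-Cre + JNK inhibitor, without overlap, a log2 fold change of 0.64 (SE 0.16, limma's adjusted p = 0.305, 0.0193 with the preparation as a block). Sec11c went from 61.2, 49.4, 51.0 and 64.9 RPKM to 94.6, 81.3, 66.6 and 79.0 RPKM, also without overlap, at 0.66 (SE 0.19, limma's adjusted p = 0.376, 0.0194 with the preparation as a block). Ssr4, at 0.74 (SE 0.28, limma's adjusted p = 0.53, 0.0161 with the preparation as a block), and the small OST subunit Dad1, at 0.67 (SE 0.31, limma's adjusted p = 0.641, 0.0184 with the preparation as a block), overlapped between groups, while each preparation was higher with the inhibitor. Srp14, Srprb, Rpn2 and Ddost were at 0.48, 0.48, 0.56 and 0.47, with blocked adjusted p from limma of 0.0253, 0.0361, 0.0411 and 0.0368. Stt3a was at -0.05, lower in all 4 preparations by at most 0.06 on the log2 scale. Preparation M2 stood apart: Sec62 and Sec63 differed by 0.51 and 0.44 there and were lower in each of the other 3, while Stt3b differed by -0.48 in M2 and was higher in the other 3.

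Without Cre, the inhibitor gave no call among the members. In Ad-LacZ + JNK inhibitor against Ad-LacZ, which shares the Ad-LacZ libraries with the first comparison, 0 of 33 members were higher, against 0.146% of 11657 genes, and 0 lower, against 0.0515% of genes. At an unadjusted p under 0.05 there were 0 members and 708 genes, and with the block 0 members were called as well. The member median was 0.01, or -0.04 after quantile normalization, beside -0.02 over all genes, and it differed in sign between preparations, being 0.21 (F1), 0.05 (M1), -0.10 (M2) and -0.16 (F2). The largest difference was that of Dad1 at 0.27 (SE 0.26, limma's adjusted p = 0.999), from 0.71 in F1 to -0.20 in F2. The interaction of virus and inhibitor over all 16 libraries was called for 0 members, against 0% of 12274 genes, and with the block for 0 members, against 0% of genes. At an unadjusted p under 0.05 it held 0 members and 384 genes, or 7 members and 1414 genes with the block. The member median of the interaction was 0.18, and 28 of 33 lay above 0, or 22 after quantile normalization, which put the median at 0.05, and 20 with RPKM as deposited, where it was 0.04 beside -0.12 over all genes.

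**Figure D5:**
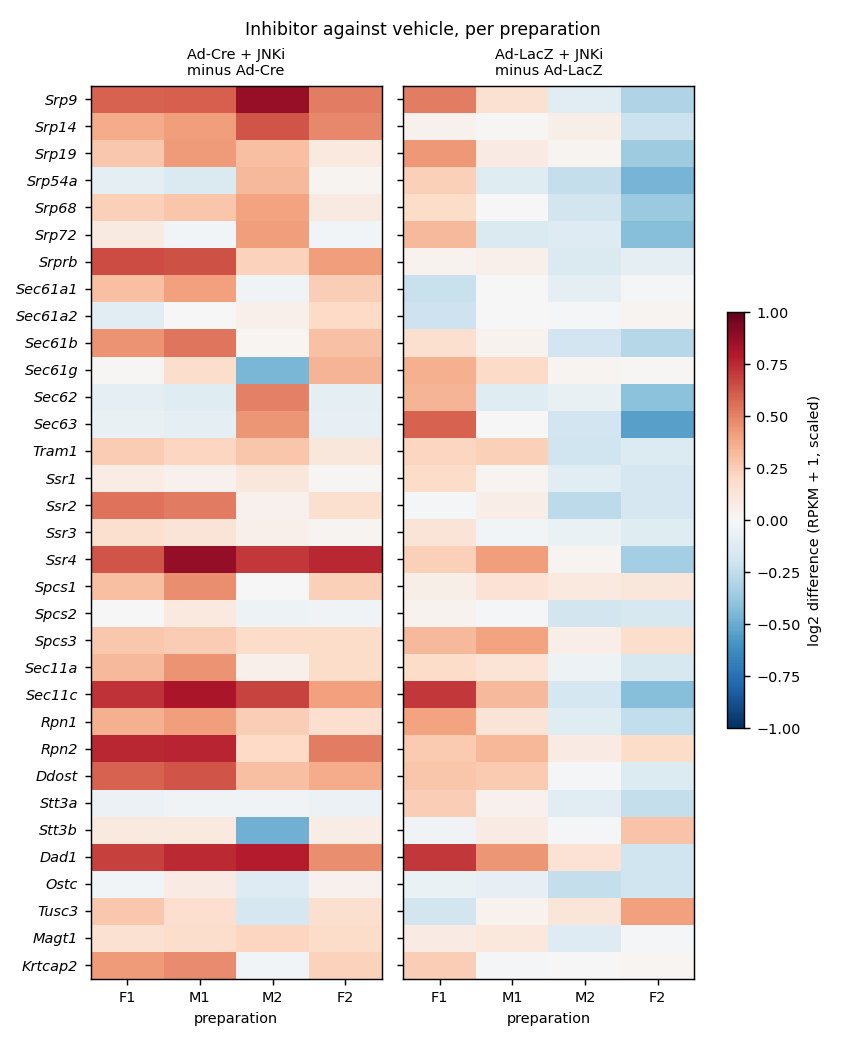
Log2 difference between inhibitor and vehicle in each preparation for the 33 tested members, in Cre libraries (left) and LacZ libraries (right), on the scaled log2(RPKM + 1) scale, red for higher with the inhibitor. Srp9, Ssr4, Sec11c and Dad1 are red in every column on the left, and on the right the F1 column is mostly red and the F2 column mostly blue.

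Other measures moved along with the groups. Across the 33 members, the fold change was related to the length of the principal transcript by Spearman's rho of -0.16 in Ad-Cre against Ad-LacZ, -0.34 in the same contrast with the inhibitor and -0.49 for the inhibitor in Cre libraries. With the exon-union length, rho across the members was -0.02, -0.07 and -0.25 in these comparisons, and over all genes tested it was -0.27, -0.32 and -0.26, against -0.06 for the inhibitor in LacZ libraries. The points are genes of the same libraries and are not independent, and the part of length in the results was not tested. In Ad-Cre against Ad-LacZ, 9.4% of all genes were lower and 7.14% higher, or 18.1% and 15.8% with the block. Of 10 beta cell markers 2 were lower in Ad-Cre, 7 with the block, with a median of -0.85. Their summed level was 52128 to 85014 RPKM in Ad-LacZ and 33563 to 84543 RPKM in Ad-Cre. Of 6 macrophage markers 3 were higher, 5 with the block, with sums of 52.5 to 59.4 RPKM in Ad-LacZ and 60.0 to 116 RPKM in Ad-Cre. Of 6 stellate cell and fibroblast markers 0 were called, 1 with the block, and their sums ran from 164 to 554 RPKM in Ad-LacZ and from 178 to 1799 RPKM in Ad-Cre. Alpha, delta, duct and endothelial marker lists had 0 calls with or without the block in this comparison, and 1 acinar marker of 13 was tested and was higher with the block. With the inhibitor, 10.5% of all genes were lower in Ad-Cre, or 12.1% with the block, and 12.7% were higher with the block. Of 10 beta cell markers 4 were lower there, and with the block 7 were lower and 1 was higher. With the block 2 of 5 alpha and 2 of 3 delta markers were higher and 3 stellate markers were lower. The duct marker sums were 376 to 909 RPKM without Cre and 217 to 305 RPKM with it. Macrophage sums overlapped (87.2 to 119.9 and 93.4 to 120.3 RPKM). With the inhibitor in both groups, 1 of the 2 tested duct markers was lower in Ad-Cre, with and without the block. Between Ad-Cre and Ad-Cre + JNK inhibitor the delta marker sums went from 1134 to 2551 RPKM to 2466 to 6831 RPKM, with 1 of 3 higher with the block. In that comparison the block also gave 1 of 5 alpha (list median 0.48), 1 endothelial and 1 acinar marker higher and 1 stellate marker lower. It gave 0 beta, duct or macrophage markers. Over all genes, 4.66% were higher and 2.1% lower there with the block. In Ad-LacZ + JNK inhibitor against Ad-LacZ, 2 of 6 macrophage markers were higher (0.146% of all genes), or 1 with the block (0.249%). Macrophage sums were 52.5 to 59.4 RPKM in Ad-LacZ and 87.2 to 119.9 RPKM with the inhibitor. Duct sums were 136 to 274 RPKM and 376 to 909 RPKM, with 1 marker higher with the block. The stellate list had a median of 1.77 and 1 marker higher with the block, and the other lists had 0 calls. Acinar sums were 2.15 to 12.5 RPKM over all libraries. The part of these cell types in the results for the members was not tested.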

How the data were processed

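RNA was measured in 16 libraries, 4 preparations in each of 4 groups. The authors prepared poly(A) libraries, sequenced paired ends, aligned the reads (STAR is the cited aligner, its version is not given in the sources used here) and deposited RPKM values per gene. The genome build is GRCm38 in the submitters' processing notes. The gene models were not given, but with exon-union lengths of GENCODE M21, 94.0% to 95.3% of low values in each library fell within 0.05 of a whole number of reads, which gave the depth. A further 3 columns of values that match no label were not used. Counting error alone limits members with few reads.

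RPKM are not counts, so log2 values of scaled RPKM plus 1 entered a linear model per gene in limma 3.58.1 under R 4.3.3, with moderated variances that follow the mean. Scaling was a trimmed mean of M-values on RPKM (trim 0.3 of ratios and 0.05 of levels). Fold changes on this scale understate low genes. A gene was tested where 4 or more of the libraries compared exceeded 1 RPKM, and calls were Benjamini-Hochberg adjusted p under 0.05 over all of them, with no minimum fold change. Without the block, p-values rest on the spread between libraries of a group, with differences between these preparations included. With the block, they rest on the spread of the changes within these preparations. The preparation number pairs libraries, since parallel cultures of each preparation received the treatments. As a check, residuals of same-numbered libraries correlated at 0.49 to 0.72 in Ad-Cre against Ad-LacZ and 0.16 to 0.66 in the same contrast with the inhibitor. For the inhibitor they correlated at 0.65 to 0.82 in Cre libraries and 0.13 to 0.83 in LacZ libraries. Blocked counts of members are therefore given for each comparison, and members whose call the block changed are named. The procedure without the block was tried on simulated data with known changes and independent libraries. That trial held no differences between preparations and so does not bear on the pairing. Other tables and plots used Python 3.11.15, numpy 2.4.6, pandas 2.3.3 and matplotlib 3.10.9. All members were named, and per related list up to 4 genes with the largest change among those called in Ad-Cre against Ad-LacZ. Uggt2, Alg14 and the genes with a promoter element were picked with their values in view. The promoter sequence of a further member is not reported here. The members and lists were chosen with earlier results of these data known. The alternatives tried were the block, each preparation left out, a joint fit of the 16 libraries, quantile normalization, unscaled RPKM (as deposited), a smaller pseudocount (0.1), a lower threshold (0.1 RPKM) or none at all, and variances without a trend. The call rule by unadjusted p and fold change (1.5 for virus, 1.2 for inhibitor), principal-transcript lengths and the block without the shallow library were added after seeing the data.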

Additional observations from a re-analysis of the deposited data

Results flagged for a closer look

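Of 136 sets of 4 libraries (34 members in 4 groups), 3 held a library whose gap to its nearest neighbour exceeded the 95% critical value of Dixon's test as a share of the group's range (2.21%), where chance gives about 1 in 20. Srp19 in Ad-LacZ F2 was at 14.6 RPKM, against 10.3 to 10.8 RPKM in the other 3 libraries. Spcs3 in Ad-LacZ F1 was at 146 RPKM, against 121 to 123 RPKM. Stt3b in Ad-LacZ F2 was at 20.2 RPKM, against 26.3 to 27.6 RPKM, and without preparation F2 the adjusted p of Stt3b from limma was 0.0646 in Ad-Cre against Ad-LacZ.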

How the results depend on the processing

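The counts of members called moved by more than 1.5 times in these cases. In Ad-Cre against Ad-LacZ, 6 members were higher, and leaving out a preparation gave 0 to 5. The replicate block (pairing by preparation) gave 15 higher and 2 lower. RPKM as deposited gave 1 lower and quantile normalization 2 lower. With the inhibitor in both groups, 9 members were higher, and leaving out a preparation gave 0 to 10, or 5 without the library Ad-Cre + JNK inhibitor F2 alone. All 16 libraries in one fit gave 15 higher, where 1694 of 12274 genes were higher. The replicate block gave 19 (1472 of 11598 genes), and the block without that library 2 (170 of 11353 genes). RPKM as deposited and quantile normalization each gave 1 lower. For the inhibitor in Cre libraries, 0 became 8 higher with the replicate block and 5 at an unadjusted p under 0.05 with a fold change above 1.2. In the related lists for Ad-Cre against Ad-LacZ, the replicate block gave 2 higher of the other targeting genes, 9 higher and 1 lower in lipid-linked sugar synthesis, 1 lower in glycan trimming, 2 higher in the ER membrane complex and 2 higher among multipass partners. RPKM as deposited gave 1 higher of the other targeting genes, 1 lower in lipid-linked sugar synthesis and 2 higher in the ER membrane complex. The cause of these moves was not tested, apart from the smaller number of libraries when some are left out. Over all genes, leaving out a preparation gave 105 to 480 higher and 77 to 501 lower in Ad-Cre against Ad-LacZ, and 214 to 1665 higher and 225 to 1713 lower with the inhibitor in both groups, where the joint fit of 16 libraries gave 1900 lower. The other 170 values of counts and ratios stayed within these bounds and 0 called members or ratios changed direction. Over all genes, the block moved the calls from 828 to 1837 higher and from 1089 to 2099 lower in Ad-Cre against Ad-LacZ, and from 1 to 536 higher in Ad-Cre + JNK inhibitor against Ad-Cre. With RPKM as deposited the median of all genes shifted to -0.14 in both comparisons that hold Ad-Cre + JNK inhibitor, and with the inhibitor in both groups the calls went from 1176 higher and 1217 lower to 950 higher and 2106 lower. Sec61g, Sec61a2 and Tram2, with the fewest reads, allow the least precise comparison.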

Other observations

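The low paralogs followed the preparation more than the group. Sec61a2 was at 1.38 to 2.09 RPKM in the 8 libraries of F1 and M1 and at 2.51 to 3.65 RPKM in the 8 libraries of M2 and F2. Tram2 was highest in M2 within each of the 4 groups, at 0.790 RPKM in Ad-LacZ, 1.49 in Ad-Cre, 0.845 in Ad-LacZ + JNK inhibitor and 0.991 in Ad-Cre + JNK inhibitor, and at 0.195 to 0.742 RPKM in all other libraries. This difference between preparations was not tested.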
